A study of Mus musculus with 12 samples.

Results

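Lymphocytes circulate between the spleen and the lymph nodes, so the T cell receptor (TCR) repertoires of both organs draw on 1 pool of cells, while each organ also keeps cells of its own. The comparison described here set the TCR libraries of tumor-draining lymph nodes (tdLN) against those of spleens, paired by treatment, and asked which V regions, J regions and CDR3 lengths of the α (TRAC), β (TRBC), γ (TRGC) and δ (TRDC) chains were used more or less in the node. The 4 spleen and 4 tdLN libraries make up 8 of the 12 libraries of the series, and the other 4 come from tumors. A difference between the tissues was taken as consistent when all 4 pairs had the same direction.

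The mice were wild type C57BL/6 animals with MTCQ1-2 tumors, a syngeneic model of head and neck squamous cell carcinoma. They received control IgG, IL-10-Fc (interleukin 10 joined to an antibody Fc part), the anti-CSF1R antibody (which blocks the receptor of a macrophage growth factor, and is called anti-CSF1R below) or the BF10 fusion protein, which joins that antibody to IL-10. The labels give 30 mg/kg of every agent in 3 doses at an interval of 3 days, and each library was built from the pooled RNA of 3 mice. The paper's methods for tumor treatment instead give a lower dose of IL-10-Fc and a higher dose of BF10, set by molecular weight. There was 1 library for each tissue and treatment. The 4 pairs therefore served as the replicates of the tissue difference, the treatments differ between them, and the p-values measure the spread between these pairs. Whether the spleen and the node of a pair came from the same mice is not given in the sources used here. Each tissue was also deposited as a set of its own, so tissue and processing set cannot be told apart.

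A TCR chain is joined from a V and a J gene segment, with a D segment between them in β and δ chains, and the joint codes for the CDR3, the loop that meets the antigen. Most CD8 T cells carry an α and a β chain and read peptides on MHC class I. The γδ T cells carry a γ and a δ chain in their place, and some of them are made in the fetal thymus with joints that hardly vary. Cells with Trgv6 and the invariant Trdv4 chain settle in mucosal and other tissues and are known for making IL-17, and cells with Trgv5 and the same δ chain are the dendritic epidermal T cells of the skin. Rearranged γ genes are also transcribed in many αβ CD8 T cells, so a γ transcript alone does not mark a γδ T cell. Among α chains, Trav11 with Traj18 marks invariant natural killer T (iNKT) cells, which bind lipids on CD1d, and Trav1 with Traj33 marks mucosal-associated invariant T (MAIT) cells, which bind vitamin B metabolites on MR1.

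The 4 libraries of the spleen held 269407 to 290112 UMIs with at least 3 reads (a UMI, or unique molecular index, tags 1 cDNA molecule), and those of the tdLN held 238672 to 340888. The labelled cell type was CD8 T cells. The names of the spleen libraries, and of the tumor libraries, repeat it, and those of the tdLN libraries do not. The files list TCR transcripts alone, so CD8 itself was not measured. The tdLN libraries of anti-CSF1R and BF10 stood apart from the other 6: 9.94% and 8.00% of their UMIs had at least 7 reads, against 33.5% to 57.3%, and they held 0.312 and 0.274 TRAC UMIs per TRBC UMI, against 0.711 to 0.816. Shares below are shares of the UMIs of 1 chain, which do not depend on this ratio, except where they are given as shares of all UMIs, which do. Results were also computed with the control IgG and IL-10-Fc pairs alone.

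The sequences below are the CDR3s, 5′ to 3′, that took the most UMIs of 4 γ and δ segments and of the 2 invariant α chains. They are shown because the first 2 took most UMIs of Trgv6 and Trdv4 in the node, the segments with the largest rises. The segments whose CDR3s are printed were picked after their values were seen. Capitals mark bases that neither the germline V nor the germline J segment accounts for.
Trgv6 with Trgj1: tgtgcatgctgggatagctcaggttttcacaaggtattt
Trdv4 with Trdj2: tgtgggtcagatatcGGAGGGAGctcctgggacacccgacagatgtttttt
Trgv5 with Trgj1: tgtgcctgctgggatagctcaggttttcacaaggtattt
Trgv4 with Trgj1: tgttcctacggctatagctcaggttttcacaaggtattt
iNKT type, Trav11 or Trav11d with Traj18: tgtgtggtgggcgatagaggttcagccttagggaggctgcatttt
MAIT type, Trav1 with Traj33: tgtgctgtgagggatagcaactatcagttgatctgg
The 3 γ joints and both α joints hold 0 bases that the germline segments do not provide. The δ joint holds 8 bases between V and J, and 7 of them match the Trdd2 segment. The Trgv6 and Trgv5 joints are both 39 bases long and differ by 1 substitution, A6C, with the Trgv6 base first and positions counted from 1 at the 5′ end of the CDR3.

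The largest fold changes between the tissues were those of γ and δ chains. TRGC and TRDC together took 1.96%, 0.677%, 1.79% and 2.30% of all UMIs in the spleens of control IgG, IL-10-Fc, anti-CSF1R and BF10 mice, and 5.27%, 5.49%, 4.96% and 6.34% in the tdLNs. All 4 pairs were higher in the node and the tissues did not overlap, with a mean of 5.52 ± 0.592% against 1.68 ± 0.703% (SD, n = 4). The exact sign-flip permutation test over the pairs (two-sided) gave p = 0.125, the smallest value that 4 pairs allow, so it cannot reach 0.05, and the adjusted p over 15 such summaries was 0.156. In bulk RNA, more cells with these chains and more of their RNA per cell cannot be told apart, and the purity of the selected cells is not given in the sources used here.

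Trgv6 had the largest difference of the γ segments. It took 3.75%, 3.53%, 4.61% and 5.84% of TRGC UMIs in the spleens, in the order of treatments given above, and 34.1%, 37.4%, 49.7% and 47.1% in the tdLNs. Every tdLN library lay far above every spleen library, and the log2 fold change was 3.23 (SE 0.10, edgeR quasi-likelihood test, Benjamini-Hochberg adjusted p = 3.97e-07, n = 4 pairs). Trgv6 lies on chromosome 13 of GRCm38, from 19190356 to 19190929 on the + strand. Among the 195 V regions tested over all chains, 35.9% passed the same rule (adjusted p under 0.05 and 4 of 4 pairs in 1 direction), 16.4% as higher and 19.5% as lower in the node. By direction alone, 49.7% had all 4 pairs on 1 side, 21.5% higher and 28.2% lower.

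A single clonotype made up nearly all Trgv6 UMIs of the node. The Trgv6–Trgj1 CDR3 printed above had 73, 13, 87 and 126 UMIs in the spleens and 2556, 3898, 4741 and 5335 in the tdLNs, which is 1.76% to 4.00% of TRGC UMIs against 33.1% to 47.7%. It made up 50% to 70.2% of the Trgv6 UMIs of a spleen library and 95.9% to 97.1% of those of a tdLN library. When each listed clonotype was counted once, whatever its UMIs, Trgv6 was no longer called.

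Trdv4, the δ segment known from cells with Trgv6 and from cells with Trgv5, was also higher in the node. Its shares of TRDC UMIs were 1.75%, 0.326%, 2.86% and 3.76% in the spleens and 34.0%, 34.9%, 52.8% and 42.3% in the tdLNs (log2 fold change 4.22, SE 0.31, edgeR adjusted p = 0.000104). The tissues did not overlap, and the IL-10-Fc spleen, with 4 Trdv4 UMIs of 1228 TRDC UMIs, was the lowest (95% Wilson interval 0.127% to 0.835%, which covers counting error only). Trdv4 lies on chromosome 14, from 54074905 to 54075515. Its leading clonotype, the Trdv4–Trdj2 joint printed above, had 32, 1, 49 and 86 UMIs in the spleens and 1359, 2374, 2018 and 2152 in the tdLNs. That was 82.4% to 86.7% of the Trdv4 UMIs of a tdLN library. Unlike Trgv6, Trdv4 was still called when each listed clonotype was counted once. Trdj2 followed, with 2.12%, 1.55%, 3.38% and 3.32% of TRDC UMIs in the spleens and 29.3%, 31.3%, 46.9% and 38.2% in the tdLNs (log2 fold change 3.76, SE 0.10, edgeR adjusted p = 4.69e-07). Since the reads of γ and δ chains come from separate molecules, the files do not show whether both chains were in the same cells.

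**Figure D1:**
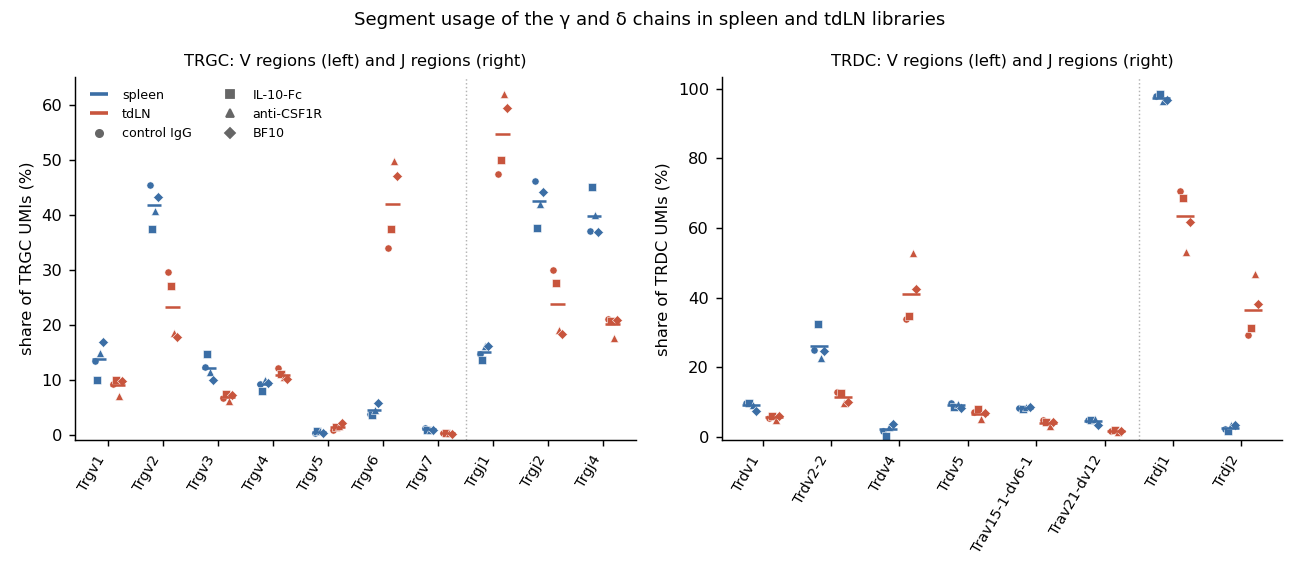
Shares (%) of TRGC UMIs (left panel) and TRDC UMIs (right panel) taken by each V region and J region in the 4 spleen libraries (blue) and the 4 tdLN libraries (red). Symbols give the treatment, horizontal bars the mean of 4 libraries, and the dotted line separates V from J regions; Trgv6 and Trgj1 on the left and Trdv4 and Trdj2 on the right lie higher in every tdLN library than in any spleen library.

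Trgv5, which forms the epidermal receptor, was also higher in the node, from a low level. It took 0.338%, 0.678%, 0.632% and 0.254% of TRGC UMIs in the spleens, which is 5 to 17 UMIs, and 0.957%, 1.34%, 1.64% and 2.10% in the tdLNs (log2 fold change 1.80, SE 0.34, edgeR adjusted p = 0.0046). Its leading joint took 46.0% of its UMIs over the 8 libraries, and 0% of Trgv5 UMIs carried the Trgv6 joint in any library. Trgj1, the J segment that both use, rose from 14.7%, 13.6%, 16.1% and 16.2% to 47.5%, 49.9%, 62.0% and 59.4% (log2 fold change 1.84, SE 0.05, edgeR adjusted p = 4.69e-07). Among the 59 J regions of all chains, 71.2% were called, 33.9% as higher and 37.3% as lower, and by direction alone 83.1% had all 4 pairs on 1 side, 37.3% higher and 45.8% lower.

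The other γ and δ V regions that were called, besides Trgv5, had lower shares in the node. Of the 9 TRGC V regions, 2 were called higher and 5 lower, and of the 16 TRDC V regions, 1 was called higher and 7 lower. Among all 195 V regions, 16.4% were called higher and 19.5% lower. Trgv2, which had the largest spleen share, took 37.4% to 45.4% of TRGC UMIs in the spleens and 17.9% to 29.7% in the tdLNs (log2 fold change -0.88, SE 0.15, edgeR adjusted p = 0.00248). Trdv2-2, the leading δ segment of the spleen, took 22.6% to 32.4% of TRDC UMIs there and 9.78% to 12.9% in the tdLNs (log2 fold change -1.20, SE 0.11, edgeR adjusted p = 0.000382). Shares of 1 chain add up to a fixed total, so a segment that takes much of the chain lowers the shares of all others.

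The test was therefore repeated after the UMIs of Trgv6 and Trdv4 had been removed, a step chosen after seeing the data. Of the segments that had fallen, Trgv7 (mean 1.04% in spleens and 0.493% in tdLNs), the UMIs assigned to Trgv1 or Trgv3 alike, Trdv2-2, Trav21-dv12 and the UMIs shared by Trav15-1-dv6-1 and Trav15d-1-dv6d-1 were called lower again. Trgv2 (43.7% against 39.7%, edgeR adjusted p = 0.339), Trgv1 (14.5% against 15.6%, edgeR adjusted p = 0.608) and Trgv3 (12.6% against 12.01%, edgeR adjusted p = 0.792) were not, and Trgv1 changed sign. In TRDC, Trav15-1-dv6-1 (8.51% against 6.95%, edgeR adjusted p = 0.105), Trdv1, Trav14d-3-dv8 and the UMIs shared by Trdv2-1 and Trdv2-2 were not called either, and Trdv1 and Trav14d-3-dv8 changed sign. Trgv4, which had been higher in 4 of 4 pairs without passing the test (9.19% against 10.96% of all TRGC UMIs, adjusted p = 0.135), was now called, at 9.62% against 19.04% (log2 fold change 0.98, SE 0.10, edgeR adjusted p = 0.000854). Trgv5 stayed higher, at 0.496% against 2.71% (log2 fold change 2.57, SE 0.34, edgeR adjusted p = 0.00117). Trgj1 was higher too, at 11.2% against 22.1% (log2 fold change 0.98, SE 0.05, edgeR adjusted p = 5.18e-05), while Trdj2 was at 0.858% and 0.805% (adjusted p = 0.905).

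Without Trgv6, TRGC still took a larger part of all UMIs in the node, at 1.04%, 0.245%, 0.953% and 1.08% in the spleens and 2.14%, 1.99%, 1.72% and 2.24% in the tdLNs. Without Trdv4, TRDC did so in 3 of 4 pairs. Its shares were 0.861%, 0.422%, 0.769% and 1.12% in the spleens and 1.34%, 1.503%, 0.727% and 1.22% in the tdLNs, and the anti-CSF1R pair was the one that was lower. The IL-10-Fc spleen had the lowest share of both chains among the 8 libraries.

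The tumor libraries of the series, which entered no test here, were low in Trgv6 and ranged widely in Trdv4. Trgv6 took 3.40%, 3.24%, 1.29% and 3.24% of TRGC UMIs in the tumors of control IgG, IL-10-Fc, anti-CSF1R and BF10 mice, while Trdv4 took 51.0%, 5.50%, 83.0% and 8.11% of TRDC UMIs. Trgv5 was at 11.1%, 5.34%, 27.3% and 11.2% of TRGC UMIs there. Trgv6 lay below every spleen and tdLN library in all 4 tumors, and Trgv5 lay above every one of them. The control IgG and anti-CSF1R tumors, with the highest Trdv4 shares, held 19355 and 5137 clonotypes, against 93553 and 146278 in the other 2.

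Among β chains, the node used less Trbv29 and more of several other V regions. Of the 26 TRBV regions tested, 10 were called higher and 6 lower in the tdLN, with a median log2 fold change of 0.15, against -0.01 over all 195 V regions. Of those 195, 16.4% were called higher and 19.5% lower. Trbv29 took 13.2%, 14.2%, 13.3% and 9.39% of TRBC UMIs in the spleens and 6.76%, 7.48%, 7.84% and 8.02% in the tdLNs (log2 fold change -0.72, SE 0.12, edgeR adjusted p = 0.0023). It was the most used TRBV region of 3 of the spleens and of none of the tdLNs, and the BF10 pair had the smallest difference. Trbv29 lies on chromosome 6, from 41271394 to 41271881.

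The TRBV segments that rose most were Trbv31, Trbv2 and Trbv5. Trbv31, which lies beyond the constant regions in the opposite orientation (chromosome 6, 41557691 to 41558452, - strand), took 1.58%, 1.38%, 1.51% and 1.61% of TRBC UMIs in the spleens and 2.71%, 2.90%, 2.56% and 2.38% in the tdLNs (log2 fold change 0.79, SE 0.09, edgeR adjusted p = 0.000947). Trbv2, near the 5′ end of the locus (41047340 to 41047995), took 1.27% to 1.63% in the spleens and 2.18% to 2.60% in the tdLNs (log2 fold change 0.76, SE 0.10). Trbv5 took 2.70%, 2.40%, 2.83% and 3.24% in the spleens and 4.35%, 4.11%, 4.49% and 4.47% in the tdLNs (log2 fold change 0.65, SE 0.07, edgeR adjusted p = 0.00083). For these 3 segments the lowest tdLN library was above the highest spleen library, and 37.9% of all 195 V regions did not overlap between the tissues.

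Smaller differences had the same regularity. Trbv26 rose from a mean of 2.90% to 4.21% (log2 fold change 0.54), Trbv20 from 1.52% to 2.04% (0.43), Trbv13-2 from 5.56% to 6.74% (0.28) and Trbv3 from 7.69% to 9.13% (0.25). Trbv12-1 fell from 5.06% to 3.65% (log2 fold change -0.47) and Trbv14 from 4.54% to 3.41% (-0.42). None of these 6 overlapped between the tissues, as was the case for 37.9% of all V regions tested. Trbv3 and Trbv13-2 lost their call under several alternatives, among them limma and UMIs with at least 7 reads. Trbv16 and Trbv19, among the 3 most used regions of both tissues, were not called, with means of 10.8% and 10.4% (adjusted p = 0.461) and of 9.97% and 9.15% (adjusted p = 0.173), and their pairs were mixed in direction.

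**Figure D2:**
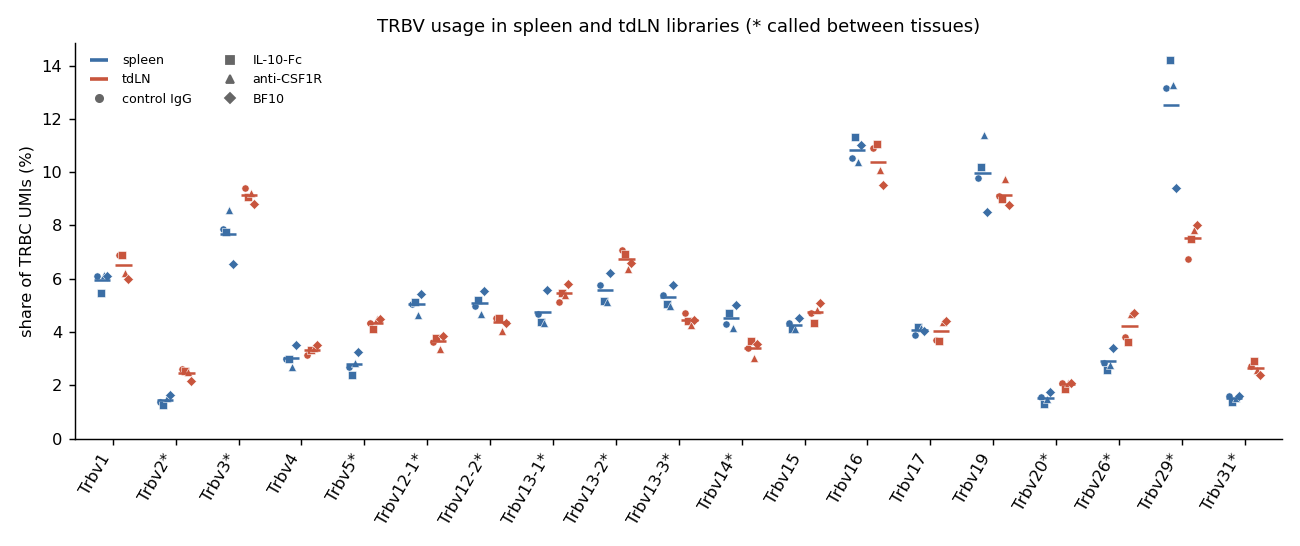
Share of TRBC UMIs (%) of each TRBV region in the spleen (blue) and tdLN (red) libraries, in the order of the gene numbers, for regions with a mean share of at least 1%. Symbols give the treatment, bars the mean of 4 libraries and asterisks the regions called between the tissues; Trbv29 lies lower, and Trbv2, Trbv5, Trbv26 and Trbv31 lie higher, in every tdLN library.

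Grouped by position, the 5 regions Trbv1 to Trbv5 at the 5′ end held 3 called higher and 0 called lower, against 16.4% and 19.5% of all 195 V regions. Together they took 21.04%, 19.9%, 21.8% and 21.03% of TRBC UMIs in the spleens and 26.4%, 25.9%, 25.8% and 24.98% in the tdLNs, a mean difference of 4.85 ± 1.04 percentage points (SD of 4 pairs, exact permutation p = 0.125, the smallest 4 pairs allow). Trbv12 to Trbv17, in the middle, held 2 called higher and 4 lower, and their sum was lower in 4 of 4 pairs, from a mean of 49.5% to 47.3%. Trbv19 to Trbv31, at the 3′ end, held 5 called higher and 2 lower, and their sum, which includes Trbv29, was lower in 3 of 4 pairs.

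The β J regions come in 2 clusters, each beside its own constant gene. Of the 6 Trbj1 regions, 3 were called higher and 0 lower in the node, and of the 6 Trbj2 regions, 0 were called higher and 2 lower. Among all 59 J regions, 33.9% were called higher and 37.3% lower. By direction alone, 4 Trbj1 regions were higher and 1, Trbj1-2, was lower in all 4 pairs. In the Trbj2 cluster 3 were lower and 1, Trbj2-3, was higher. The Trbj2 share of TRBC UMIs was 68.8%, 71.1%, 70.4% and 69.4% in the spleens and 68.8%, 69.1%, 66.1% and 65.5% in the tdLNs. It was lower in 4 of 4 pairs, but the difference was -0.00816 percentage points in the control IgG pair and -4.28 in the anti-CSF1R pair. The mean difference of -2.51 ± 1.95 percentage points (SD of 4 pairs) had an exact permutation p of 0.125, the smallest 4 pairs allow.

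Within the first cluster, Trbj1-3 took 4.64%, 4.13%, 4.42% and 4.45% of TRBC UMIs in the spleens and 5.15%, 5.18%, 5.89% and 5.86% in the tdLNs (log2 fold change 0.32, SE 0.05, edgeR adjusted p = 0.00121). Trbj1-4 rose from a mean of 6.07% to 7.02% (log2 fold change 0.21) and Trbj1-6 from 2.43% to 2.83% (0.22). For these 3 regions the tissues did not overlap, as was the case for 64.4% of all 59 J regions. The anti-CSF1R and BF10 tdLNs had the highest shares, while the spleen values of all treatments lay close together. Those are also the tdLN libraries with few reads per UMI, whose part in the result was not tested. With the control IgG and IL-10-Fc pairs alone, 32 of the 42 called J regions were called again. All 42 kept their direction. A call already needs every pair on the same side, so leaving out pairs does not test the direction.

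In the second cluster, Trbj2-1 took 14.1%, 14.8%, 14.8% and 13.6% in the spleens and 12.3%, 12.5%, 12.2% and 12.4% in the tdLNs (log2 fold change -0.21, SE 0.03, edgeR adjusted p = 0.00121), with no overlap. Trbj2-5 was called lower with overlapping libraries, at a mean of 10.9% and 10.4% (log2 fold change -0.08, adjusted p = 0.0292), and lost its call under several alternatives, DESeq2 among them. Trbj2-7, the most used β J region, was at 20.8 ± 0.451% and 20.7 ± 1.12% (SD, n = 4), a log2 fold change of -0.01 (SE 0.04, edgeR adjusted p = 0.872). The other 6 Trbj regions, Trbj1-1, Trbj1-2, Trbj1-5, Trbj2-2, Trbj2-3 and Trbj2-4, were not called, with adjusted p from 0.08 to 0.944.

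Most α J regions differed between the tissues. Of the 41 TRAJ regions tested, 15 were called higher and 16 lower in the node, with a median log2 fold change of -0.01. Among all 59 J regions, 33.9% were called higher and 37.3% lower. In TRAJ, 28 regions did not overlap between the tissues, against 64.4% of all 59 J regions. Traj37 took 3.02%, 2.88%, 3.04% and 2.78% of TRAC UMIs in the spleens and 4.30%, 4.46%, 4.45% and 4.29% in the tdLNs (log2 fold change 0.58, SE 0.03, edgeR adjusted p = 1.57e-05). Traj45 took 2.63%, 2.65%, 2.44% and 2.60% in the spleens and 1.61%, 1.57%, 1.60% and 1.64% in the tdLNs (log2 fold change -0.69, SE 0.04, edgeR adjusted p = 1.57e-05). For both, the difference was several times the spread within a tissue, and it held in libraries of every treatment. Traj37 lies on chromosome 14 from 54181518 to 54181577, and Traj45 from 54172828 to 54172890.

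Other TRAJ regions followed with smaller steps. Traj57 rose from a mean of 0.894% to 1.35% (log2 fold change 0.60), Traj39 from 2.10% to 2.91% (0.47), Traj43 from 2.14% to 2.74% (0.36), Traj31 from 5.44% to 6.48% (0.25) and Traj23 from 4.97% to 5.66% (0.19). Traj30 fell from 6.34% to 4.72% (log2 fold change -0.43), Traj26 from 5.02% to 3.93% (-0.35) and Traj22, the most used of all in the spleen, from 7.76% to 6.19% (-0.32). These 8 regions, Traj37 and Traj45 were called under every alternative tried. In the tumors, Traj37 was at 2.82%, 2.89%, 1.71% and 2.87%, and Traj45 at 1.66%, 2.45%, 1.22% and 2.67%. For Traj45 the IL-10-Fc and BF10 tumors, with more clonotypes, lay near the shares of the spleens. For Traj37 the control IgG tumor did so as well.

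**Figure D3:**
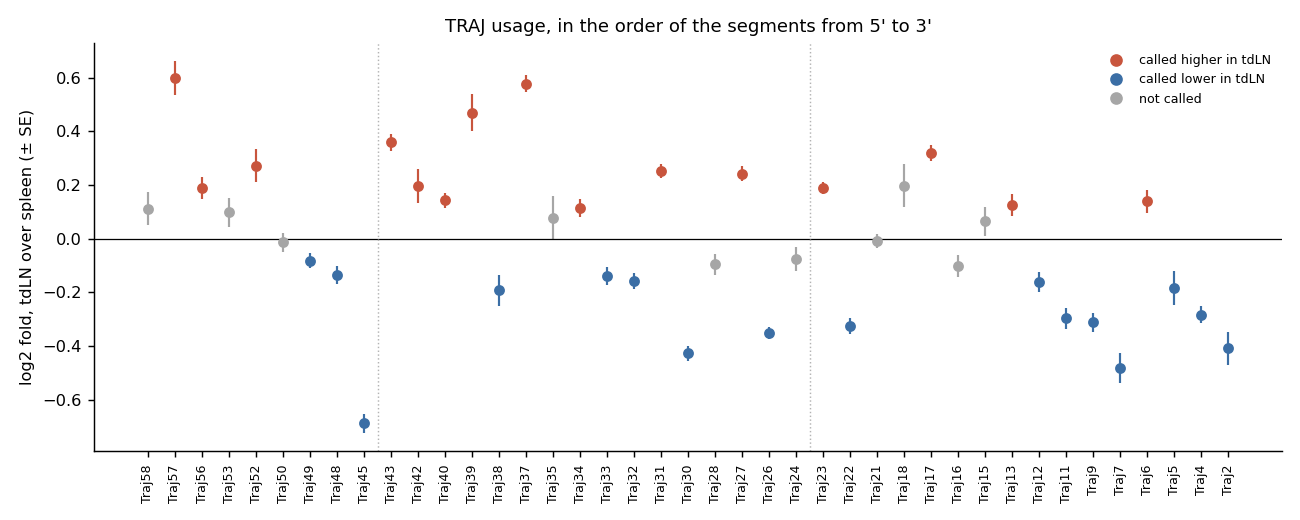
Log2 fold change (tdLN over spleen, y axis) of the share of TRAC UMIs of each TRAJ region, in the order of the locus from 5′ (left) to 3′ (right), with bars of 1 SE from the edgeR fit over 4 pairs. Red and blue mark regions called higher and lower in the tdLN and grey those not called, and dotted lines separate the 5′, middle and 3′ parts of the locus; regions called in opposite directions stand next to each other, such as Traj45 and Traj43.

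Regions called higher and lower were found in every part of the locus. Primary α rearrangements use Traj segments at the 5′ end, and later rounds in the same cell move toward the 3′ end. The 9 regions Traj61 to Traj45 held 3 called higher and 3 lower, the 16 regions Traj44 to Traj24 held 8 and 5, and the 16 regions Traj23 to Traj2 held 4 and 8. The shares over all 59 J regions were 33.9% and 37.3%. The middle part took 43.8%, 44.2%, 43.8% and 44.4% of TRAC UMIs in the spleens and 45.6%, 45.9%, 46.4% and 46.1% in the tdLNs, and the 3′ part took 41.2%, 41.0%, 41.9% and 40.8% and then 40.0%, 39.7%, 39.5% and 39.3%. Each sum moved in 1 direction in 4 of 4 pairs, by 1.95 ± 0.445 and -1.63 ± 0.545 percentage points (SD of 4 pairs, exact permutation p = 0.125 for both, the smallest 4 pairs allow). The 5′ part differed by -0.320 ± 0.176 points, also in 4 of 4 pairs.

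For 2 of the TRAJ regions the leading joint was examined. The CDR3s below took the most UMIs of Traj37 and of Traj22 and show how small a part of each segment a single joint was.
Traj37, V region Trav3-3: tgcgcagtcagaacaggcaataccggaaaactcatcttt
Traj22, V region Trav14-2 or Trav14n-2: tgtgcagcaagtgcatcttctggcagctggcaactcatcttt
The Traj37 joint took 0.772% of Traj37 UMIs, with 6, 7, 11 and 3 UMIs in the spleens and 76, 70, 31 and 23 in the tdLNs. The Traj22 joint took 6.41% of Traj22 UMIs, with 665, 773, 606 and 481 UMIs in the spleens and 344, 506, 201 and 176 in the tdLNs. It was listed with 12 different V labels. Neither joint has a base that is not germline, and both were found in all 8 libraries.

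For α V regions, calls went in both directions. Of the 144 TRAV regions tested, 19 were called higher, 20 lower and 105 not, with a median log2 fold change of 0.03. By direction alone, 26 were higher and 34 lower in all 4 pairs, and 43 did not overlap between the tissues. Among all 195 V regions, 35.9% were called, 16.4% as higher and 19.5% as lower. All 4 pairs were on 1 side for 49.7% of them, and 37.9% did not overlap. Trav9d-1 took 1.55%, 1.29%, 1.74% and 1.51% of TRAC UMIs in the spleens and 2.88%, 2.59%, 2.53% and 2.31% in the tdLNs (log2 fold change 0.76, SE 0.10, edgeR adjusted p = 0.00149). Trav4n-4 took 1.54%, 1.21%, 1.52% and 1.61% and then 2.33%, 2.62%, 2.28% and 2.43% (log2 fold change 0.72, SE 0.11, edgeR adjusted p = 0.00183). Trav3-1 went the other way, from 1.84%, 2.38%, 1.95% and 1.503% to 1.05%, 1.17%, 1.06% and 1.11% (log2 fold change -0.79, SE 0.11, edgeR adjusted p = 0.00149). In all 3 the tissues did not overlap. Trav9d-1 (52792316 to 52792777), Trav4n-4 (53302036 to 53302559) and Trav3-1 (52580665 to 52581213) all lie on chromosome 14.

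Trav10 rose from a mean of 2.72% to 3.76% (log2 fold change 0.46), the UMIs shared by Trav6d-5 and Trav6n-5 from 1.84% to 2.58% (0.49) and Trav21-dv12 from 0.667% to 1.01% (0.59). Trav7d-2, the most used TRAV region of the node, took 4.81%, 4.51%, 5.51% and 4.68% in the spleens and 6.95%, 6.88%, 6.46% and 5.09% in the tdLNs (log2 fold change 0.37, SE 0.09, edgeR adjusted p = 0.0151). Its tissues overlapped, and it was not called with UMIs of at least 7 reads, without the control IgG pair, without the IL-10-Fc pair, or with the anti-CSF1R and BF10 pairs alone. Trav8-2 (mean 1.28% and 0.851%), Trav9n-3 (1.73% and 1.17%), Trav8-1 (2.48% and 1.79%), Trav19 (1.17% and 0.863%) and Trav12n-3 (3.78% and 2.96%) were called lower. The last 3 lost their call with UMIs of at least 7 reads. Trav14-2 or Trav14n-2, the label with the second largest share in the node, was not called (4.11 ± 0.610% and 4.54 ± 0.208%, SD, n = 4, adjusted p = 0.173).

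**Figure D4:**
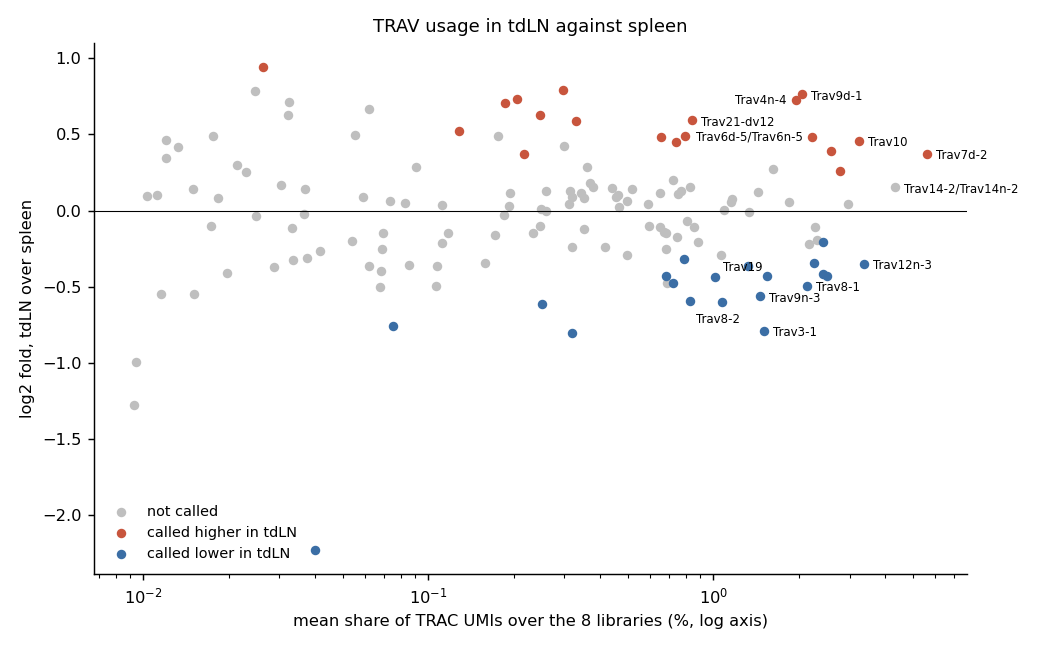
Log2 fold change (tdLN over spleen, y axis) of each TRAV region against its mean share of TRAC UMIs over the 8 libraries (x axis, %, log scale), 1 point per V region as listed. Red and blue points were called higher and lower in the tdLN and grey points were not called; the named regions with a share of at least 1% lie between -0.79 and 0.76.

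Many TRAV genes are copies so alike that 1 CDR3 read fits several. UMIs with several V genes named made up 11.7%, 11.6%, 11.7% and 10.8% of all UMIs in the spleens and 11.7%, 10.9%, 6.93% and 6.42% in the tdLNs. The anti-CSF1R and BF10 tdLNs were the lowest, and they were also the libraries with the fewest TRAC UMIs. Within TRAC the part was 24.6% to 27.9% in the spleens and 26.4% to 30.3% in the tdLNs. With V families in place of single genes, 18 families over all chains were called higher and 23 lower.

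The invariant α chains gave no common change. The iNKT type took 0.570%, 0.0511%, 0.586% and 0.396% of TRAC UMIs in the spleens and 0.571%, 0.364%, 0.388% and 0.320% in the tdLNs. It was higher in 2 of 4 pairs (exact permutation p = 0.875), and the mean difference of 0.010 percentage points rested on the IL-10-Fc pair, whose spleen held 62 such UMIs against 470 to 656 in the other spleens. Without that pair the mean difference was -0.091. The MAIT type took 0.0200%, 0.0107%, 0.0136% and 0.00674% in the spleens and 0.0817%, 0.0430%, 0.0198% and 0.0161% in the tdLNs, higher in 4 of 4 pairs (exact permutation p = 0.125, the smallest 4 pairs allow). It rests on 8 to 23 UMIs per spleen and 9 to 83 per tdLN, and in the anti-CSF1R and BF10 pairs the 95% Wilson intervals of the tissues overlapped (0.00827% to 0.0225% against 0.0116% to 0.0338%, and 0.00341% to 0.0133% against 0.00847% to 0.0306%).

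CDR3s of 1 length stood out in every chain. Of 54 chain lengths tested, 48.1% were called, 7.41% as higher in the node and 40.7% as lower, and the 4 that were higher were 1 length of each chain. By direction alone 59.3% had all 4 pairs on 1 side, 7.41% higher and 51.9% lower, and 48.1% did not overlap between the tissues. TRAC CDR3s of 13 residues took 25.2%, 25.0%, 25.2% and 24.8% in the spleens and 29.2%, 28.7%, 28.6% and 28.5% in the tdLNs (log2 fold change 0.20, SE 0.01, edgeR adjusted p = 8.85e-44). TRBC CDR3s of 13 residues took 18.9%, 18.7%, 18.96% and 19.1% and then 20.97%, 20.96%, 21.2% and 21.2% (log2 fold change 0.15, SE 0.01, edgeR adjusted p = 2.18e-41). The increase was of nearly the same size in all 4 pairs. For lengths, edgeR found no spread particular to single lengths and used 1 spread for all of them, which gives such small p-values. With limma the adjusted p was 0.000523 for TRAC and 0.00173 for TRBC.

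The neighbouring lengths of TRAC gave way on both sides, with 12 residues at a mean of 15.1% and 14.3%, 14 residues at 31.6% and 30.7% and 16 residues at 5.60% and 4.90%, all called lower. In TRBC, 11 residues (4.68% and 4.19%), 16 residues (8.85% and 7.80%) and 17 residues (2.20% and 1.81%) were called lower, while 12, 14 and 15 residues were not called. With TMM factors, another way to scale the shares, 0 of the 22 lower lengths were called and the 4 higher ones still were.

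The mean length moved little for the αβ chains. It was 13.55 ± 0.00687 residues in the spleens and 13.52 ± 0.0151 in the tdLNs for TRAC, and 13.88 ± 0.0115 and 13.84 ± 0.0127 for TRBC (SD, n = 4), lower in 4 of 4 pairs for both (exact permutation p = 0.125, the smallest 4 pairs allow). At equal J usage the differences were -0.0359 and -0.0461 residues, against -0.0312 and -0.0419 as measured. The number of bases between the germline V and J matches, which holds N additions and D bases, was lower in the node for TRBC in 4 of 4 pairs, at 10.1 ± 0.0446 and 9.77 ± 0.0796 bases. For TRAC it was 3.32 ± 0.0201 and 3.29 ± 0.0355, lower in 2 of 4 pairs.

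For the γ and δ chains the length that rose was that of the clonotypes printed above. TRGC CDR3s of 13 residues took 21.7%, 20.5%, 18.2% and 22.3% in the spleens and 46.7%, 49.9%, 61.3% and 58.1% in the tdLNs (log2 fold change 1.39, SE 0.07; limma adjusted p = 0.00246). Trgv6 made up 8.61% to 18.5% of these in the spleens and 71.5% to 79.7% in the tdLNs. TRDC CDR3s of 17 residues took 13.8%, 12.8%, 16.1% and 15.0% and then 37.1%, 39.8%, 52.5% and 45.6% (log2 fold change 1.59, SE 0.11; limma adjusted p = 0.000253), and Trdv4 made up 0.637% to 18.6% and then 76.4% to 86.9% of them. After the UMIs of Trgv6 and Trdv4 had been removed, 17 residues in TRDC was no longer called (13.001% and 13.98%, adjusted p = 0.454), while 13 residues in TRGC was, by less (18.5% and 22.3%, log2 fold change 0.27, edgeR adjusted p = 0.0484). With each clonotype counted once, neither length was called (TRGC log2 fold change 0.07, edgeR adjusted p = 0.576, and TRDC 0.17, edgeR adjusted p = 0.0726).

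**Figure D5:**
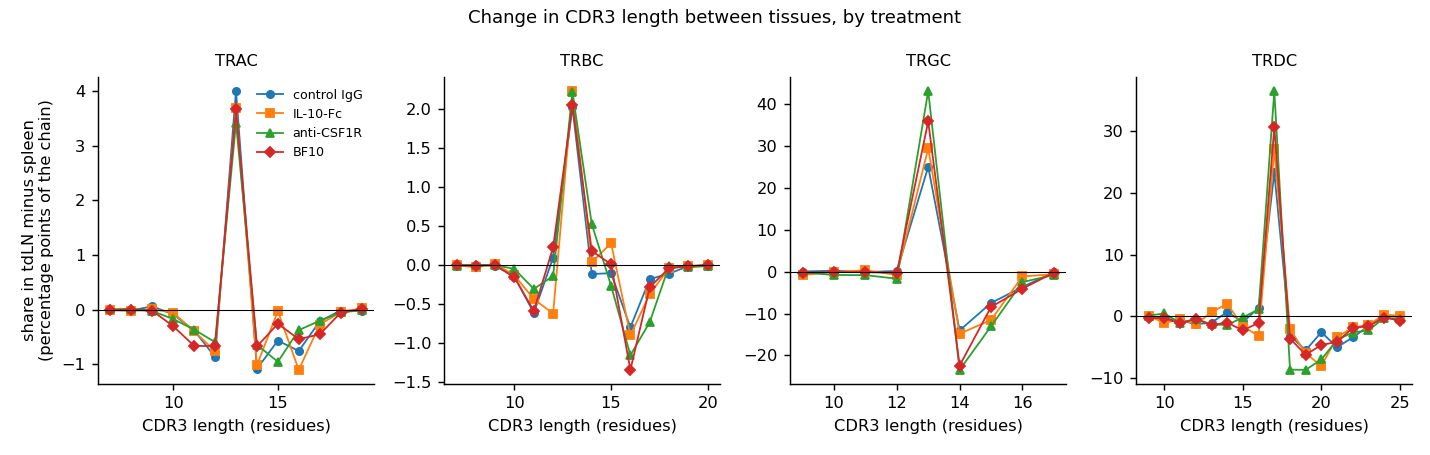
Difference in the share of UMIs (tdLN minus spleen, percentage points of the chain, y axis) at each CDR3 length in residues (x axis), 1 panel per chain with its own y scale and 1 line per treatment pair. In every pair the highest point is at 13 residues for TRAC, TRBC and TRGC and at 17 residues for TRDC, and it stands far higher for TRGC and TRDC than for TRAC and TRBC.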

How the data were processed

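RNA of CD8 T cells was made into libraries with constant region primers for all 4 chains and sequenced around the CDR3. The authors grouped the reads by UMI in Qiagen's portal and deposited, per clonotype, the UMI counts with at least 3 reads and with higher minima, not normalized, with V region, J region and CDR3. The aligner and germline reference are not given in the sources used here, and mm10 is the build in the submitters' processing notes. The authors' frequency and rank columns were not used.

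UMI counts with at least 3 reads were summed per V region as listed, J region and CDR3 length. Features with at least 10 UMIs in at least 4 of 8 libraries were tested with edgeR 4.0.16 (quasi-likelihood, R 4.3.3), with treatment and tissue as terms and the UMI total of the chain as offset, and adjusted over the features of all chains (Benjamini-Hochberg), separately for V, J and length. A feature was called at an adjusted p under 0.05 with 4 of 4 pairs in 1 direction. At an unadjusted p under 0.05 there were 89 V regions, 44 J regions and 30 lengths. Summaries of several features were compared with the exact sign-flip test. As a guide to the lowest shares, 3 UMIs of a chain were between 0.00142% (TRBC) and 0.407% (TRGC) in these 8 libraries. Lower counts were kept as listed. Intervals cover counting error only.

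Named regions are, for TRAC and TRBC, the called regions of at least 1% with the largest fold changes (10 V, 8 J) and the 3 with the largest shares per tissue, every Trbj region and every TRGC and TRDC V region of at least 1%. Trgv7, Trgj1, Trdj2, the label shared by Trav15-1-dv6-1, Trav15d-1-dv6d-1 and Trav15n-1 in TRAC, and the CDR3 lengths named fall outside it and were chosen after their values were seen. The members and lists were chosen with earlier results of these data known. Gene positions and germline segments come from GENCODE on GRCm38. Germline V and J matched 98.4% of TRAC UMIs and more than that of the other chains. Alternatives were UMIs with at least 7 reads, each clonotype counted once, TMM, DESeq2 1.42.0, limma 3.58.1 (log2 of the share in percent plus 0.01), no filter, no treatment block, V families, V regions of 1 gene and leaving out each pair. Added after seeing the data were the control IgG and IL-10-Fc pairs alone, the anti-CSF1R and BF10 pairs alone, the fit without Trgv6 and Trdv4, equal J usage and bases between the matches. On simulated counts, 20 of 195 V regions, 14 of 59 J regions and 13 of 54 lengths were changed. Of these, 40.5%, 95% and 71.5% were called, and under 1% of the unchanged ones. The simulated shares did not have to add up to a fixed total as real ones do, so calls due to that were not covered.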

Additional observations from a re-analysis of the deposited data

Results flagged for a closer look

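Of 184 groups of 4 libraries examined (each summary and named region in each tissue), 8 held a library whose distance from its nearest neighbour took more of the group's range than Dixon's 95% critical value allows. Chance gives about 1 in 20 groups, or 5%, and 8 of 184 is 4.35%. The groups were 4 of spleens and 4 of tdLNs.

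Among the spleens, the BF10 library had a mean TRAC CDR3 length of 13.5597 residues (the other 3, 13.5453 to 13.5476), 10.8491% of all UMIs with several V genes named (11.5848% to 11.721%) and 4.1501% of TRAC UMIs with Trav12n-3 (3.60% to 3.68%). The IL-10-Fc spleen had 6.75896% of TRDC UMIs with Trav15d-2-dv6d-2, below the other 3.

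Among the tdLNs, the anti-CSF1R library had 45.7036% of TRBC UMIs with Trbv12 to Trbv17 (the other 3, 47.6855% to 47.8518%) and 1.31696% of TRDC UMIs with Trav21-dv12, below the others. The IL-10-Fc tdLN had 1.8705% of TRBC UMIs with Trbv20 (2.09% to 2.11%) and 1.43568% of TRAC UMIs with Traj57 (1.31% to 1.33%). For Trav12n-3, Trbv20, Trav21-dv12 and Traj57 the 2 tissues did not overlap with that library included.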

How the results depend on the processing

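A call needs all 4 pairs in 1 direction, so leaving out pairs does not test the direction of a called feature. When 1 pair was left out, 50 to 66 of the 70 called V regions were called again. This was so for 35 to 37 of the 42 called J regions and 22 to 24 of the 26 called lengths. Each library is 1 pool, and the smallest p that 4 pairs allow in an exact test is 0.125, so the summaries rest on direction and size alone. With at least 7 reads per UMI, 2 tdLN libraries keep under 10% of their UMIs, and 49 of 68 V calls were made again. The γ and δ shares rest on 737 TRGC and 1228 TRDC UMIs in the IL-10-Fc spleen. Without the treatment block, 32 V regions were called higher and 40 lower, against 32 and 38 with it; the labels give no replicate numbers. The causes of the changes below were not tested.

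Against 32 V regions called higher and 38 lower, V families, of which there are fewer, gave 18 and 23, and leaving out 1 pair gave 21 (without control IgG) to 31 higher. Against 22 J regions called lower, UMIs with at least 7 reads gave 14. Against 22 lengths called lower, TMM factors gave 0, each clonotype counted once 14, and the fit without Trgv6 and Trdv4 13. The mean TRGC length difference turned to 0.007343 residues when each clonotype was counted once, and the iNKT difference ranged from -0.09096 to 0.07931 percentage points when 1 pair was left out.

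The following log2 fold changes had the opposite sign to the main value. Each clonotype counted once gave Trbv19 0.016, Trav13-4-dv7 0.3773, Trav14d-3-dv8 0.0549, the shared label of Trav15-2-dv6-2 and Trav15d-2-dv6d-2 0.3799, Trav15d-1-dv6d-1 0.2848, Trav15d-2-dv6d-2 0.4788, Trdv1 0.0644, Trdv5 0.2678, Trgv1 0.12, the shared label of Trgv2 and Trgv3 0.1289 and Trgv3 0.1253, and 0.4751 more bases between the V and J matches of TRGC. TMM factors gave Trav13-4-dv7 0.2536, the shared Trav15-2 label 0.3363, Trav15d-1-dv6d-1 0.2005, Trav15d-2-dv6d-2 0.2273 and Trdv5 0.0809. The fit without Trgv6 and Trdv4 gave Trav13-4-dv7 0.4596, Trav14d-3-dv8 0.0469, the shared Trav15-2 label 0.5526, Trav15d-1-dv6d-1 0.4104, Trav15d-2-dv6d-2 0.4362, Trdv1 0.059, Trdv5 0.2897, Trgv1 0.1027 and the shared Trgv2 label 0.0256. The control IgG and IL-10-Fc pairs alone gave Trbv16 0.0072, Trav13-4-dv7 0.0547, Trav15d-1-dv6d-1 0.1402, Trbj1-1 -0.0521, Trbj2-4 0.0566 and Trbj2-7 0.0635, and 0.01325 more bases between the matches of TRAC. Trav15-2-dv6-2 in TRDC was at -0.0465 with 1 V gene named and -0.6726 with the anti-CSF1R and BF10 pairs alone, and ranged from -0.2331 to 0.3773 when 1 pair was left out. So did Trbj1-1, from -0.002 to 0.0749, Trbj2-4, from -0.0333 to 0.0394, and Trbj2-7, from -0.0374 to 0.0227. Of these, Trav14d-3-dv8, Trdv1, Trgv1 and Trgv3 were called in the main test.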

Other observations

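The mean number of bases between the germline V and J matches, a measure added after seeing the data, was 3.61 ± 0.162 in spleens and 2.05 ± 0.289 in tdLNs for TRGC, and 20.8 ± 0.265 and 15.9 ± 1.11 for TRDC (SD, n = 4), lower in 4 of 4 pairs for both. The leading Trgv6 joint has 0 such bases and the leading Trdv4 joint 8.

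The UMIs shared by the labels Trav15-1-dv6-1, Trav15d-1-dv6d-1 and Trav15n-1, which belong to V segments used by both α and δ chains, took 0.0665% of TRAC UMIs in spleens and 0.0137% in tdLNs (log2 fold change -2.23). The label of Trav15-1-dv6-1 and Trav15d-1-dv6d-1 in TRDC was lower too (4.06% and 0.633%, log2 fold change -2.53). UMIs given to Trav15-1-dv6-1 alone in TRDC were at 8.32% and 4.11%, a difference that was not called without Trgv6 and Trdv4 or with each clonotype counted once.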
